A study of Mus musculus with 13 samples.

Results

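The imprinted genes are genes that somatic cells express mainly from 1 parental allele, and the 34 analysed here were taken from a fixed list of symbols. All 34 were on a row of the 2 deposited tables of spermatogonial RNA, out of 20662 rows, 33 of them on a row of their own and Snrpn on a row shared with Snurf, which the same transcript encodes. Of the list, 20 were sorted as expressed from the paternal and 14 as expressed from the maternal allele in soma. This does not hold in every tissue. Gnas, sorted as maternal, is expressed from both alleles in most tissues, and Grb10 from the paternal allele in neurons. The tables carry no allele information, so only the summed level of both alleles was measured.

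An imprint is DNA methylation laid down at a control region in 1 parent's germ line and kept on that parent's allele in the body of the offspring. The regions of the H19/Igf2 and Dlk1-Dio3 clusters are methylated on the paternal allele, and most others, such as those of Mest, Peg3, Peg10, Nnat, Snrpn, Igf2r/Airn and Kcnq1ot1, on the maternal allele. Germ cells erase both patterns in the embryo, and the male germ line then writes the paternal pattern on both of its alleles before birth, so spermatogonia are known to carry the paternal pattern on both copies. Many of the genes control fetal and placental growth.

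The series profiled ribosomal-RNA-depleted RNA of testicular germ cells from C57BL/6 mice at postnatal week 8, in 13 samples (2 spermatogonial, 5 spermatocyte, 5 spermatid and 1 mature sperm). The 2 spermatogonial samples, titled KIT_AGSC and THY1_AGSC, were analysed, and the other 11 were not analysed here. KIT is the stem cell factor receptor of differentiating spermatogonia, and THY1 is an antigen used to enrich undifferentiated ones. No allele, agent or treatment is named for either sample, and the labels do not say how many mice were pooled. Each group has a single library and no replicate, and each difference is one between 2 libraries, given with no test. Values were taken as FPKM, fragments scaled to transcript length and library size. In each table the value column carries the antigen of the other sample's title, and the antigen transcripts also ran opposite to the titles: Kit was listed at 0 in the KIT-labelled library and at 36.7 FPKM in the THY1-labelled library, and Thy1 stood at 78.8 and 0.723 FPKM. Titles are followed throughout, as the KIT-labelled and the THY1-labelled library, and every direction would turn if they were exchanged. Total counts are unknown. The FPKM that a single fragment is worth, read from low values, was 6.41 times larger in the KIT-labelled library, which was therefore the shallower. Genes listed at 0 made up 33.2% of all genes there and 24.2% in the THY1-labelled library.

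Imprinted genes were about as often different between the libraries as other genes, with most of the measured paternally expressed ones on 1 side and most of the maternally expressed ones on the other. Of the 34 genes, 23 reached 1 FPKM in at least 1 library. On the log2(FPKM + 1) scale, 9 of them were at least 2-fold higher in the KIT-labelled library, against 39.5% of all 15573 genes that reached 1 FPKM, and 10 exceeded 2-fold toward the THY1-labelled library, against 41.1% of all genes. The other 4 lay within 2-fold. The shares of the 23, 39.1% and 43.5%, were thus near the background. The median difference (KIT-labelled minus THY1-labelled) was -0.57, against -0.00258 for all genes.

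Among the paternally expressed genes that reached 1 FPKM, 8 of the 13 were higher by 2-fold or more in the KIT-labelled library and 3 in the THY1-labelled library. They were Airn, Peg10, Nap1l5, Kcnq1ot1, Zrsr1, Nnat, Mest and Plagl1 on the first side and Sgce, Impact and Rtl1 on the second. Among the 10 maternally expressed genes, 1, Kcnq1, was higher in the KIT-labelled library and 7 were higher in the THY1-labelled library, namely Grb10, Meg3, Rian, Igf2r, Mirg, Gnas and Ppp1r9a. The median difference was 2.16 for the paternally and -1.90 for the maternally expressed genes. Genes of a cluster share control regions, and Meg3, Rian and Mirg are thought to lie on 1 long transcript, so these counts are not independent. No test of the split was made. Leaving out genes listed at 0 in either library, the split (labelled KIT first) was 8 to 2 of 12 paternally expressed genes. It was 1 to 3 of 6 maternally expressed genes. Of all 12302 genes kept this way, 41.5% were higher by 2-fold or more in the KIT-labelled library and 33.9% in the other.

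**Figure D1:**
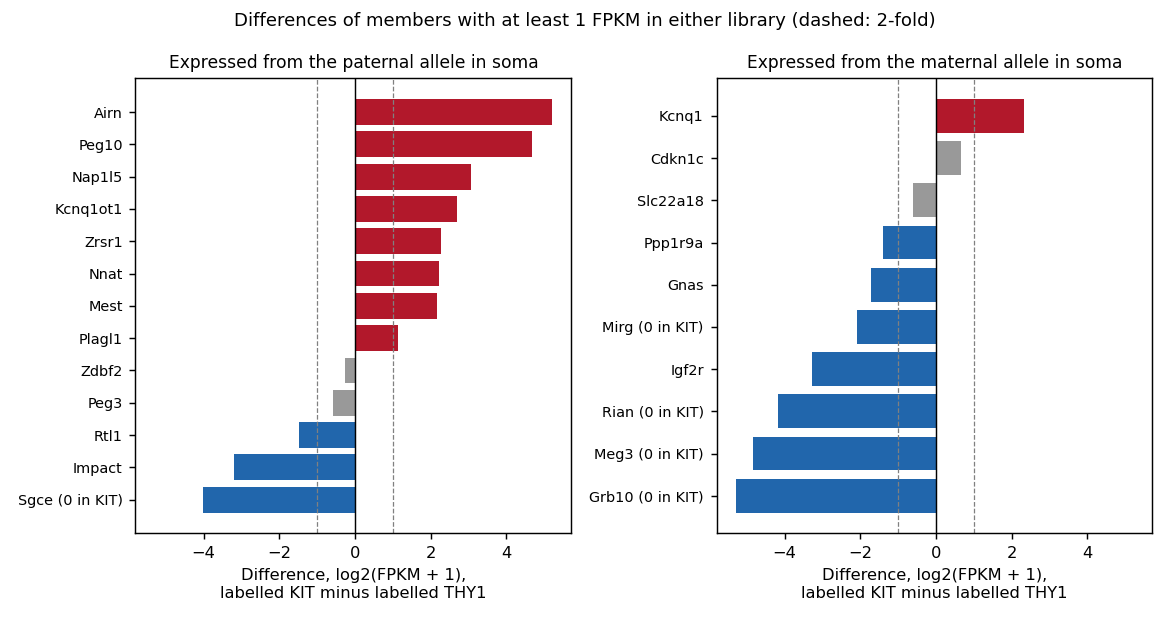
Differences of the 23 imprinted genes that reached 1 FPKM, as log2(FPKM + 1) in the KIT-labelled library minus the THY1-labelled library, with 1 library each and no error bars. Bars past the dashed lines differ at least 2-fold, and 8 of 13 paternally expressed genes lie to the right while 7 of 10 maternally expressed genes lie to the left.

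**Figure D2:**
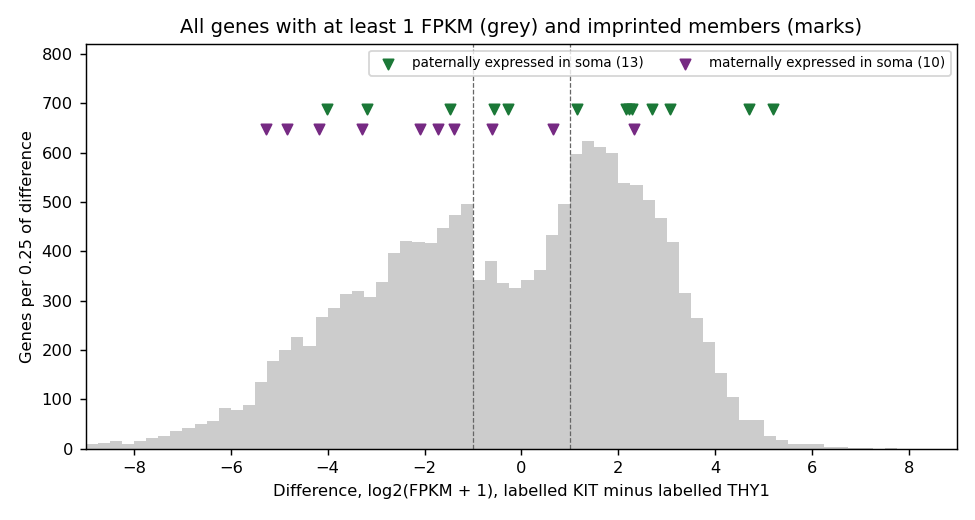
Histogram of the same difference over all 15573 genes that reached 1 FPKM (grey, genes per bin of 0.25), with the imprinted genes marked by parental allele. The marks lie within the range of all genes, the paternally expressed ones between -4.02 and 5.20 and the maternally expressed ones between -5.28 and 2.32.

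The number of exons moved with the direction among all genes, and this touches several of the imprinted genes. Exons were counted in the longest annotated transcript (the longest protein-coding one where the gene has any). Of 575 genes with 1 exon that reached 1 FPKM, 86.8% were higher by 2-fold or more in the KIT-labelled library and 4.70% in the other. Of 1850 genes with 2 or 3 exons the shares were 71.8% and 15.7%, and of 11383 genes with 4 or more exons they were 31.5% and 47.4%. The 3 imprinted genes with 1 exon that reached 1 FPKM, Kcnq1ot1, Zrsr1 and Nap1l5, were all higher in the KIT-labelled library. The 6 with 2 or 3 exons split evenly, Airn, Peg10 and Nnat to the KIT-labelled library and Rian, Gnas and Rtl1 to the THY1-labelled library. Gnas is in this class by the transcript that the rule picked, and its locus makes others that its row does not separate. Of the 14 with 4 or more exons, 3 were higher in the KIT-labelled library (Mest, Kcnq1 and Plagl1) and 7 in the other. Leaving out genes with 1 exon, the 10 paternally expressed genes stood at 5 to 3 with a median of 0.43, and the 10 maternally expressed at 1 to 7. Of all 13233 genes with more than 1 exon that reached 1 FPKM, 37.2% were higher in the KIT-labelled library and 42.9% in the other. Their median difference was -0.25. The part of exon number in these differences was not tested.

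**Figure D3:**
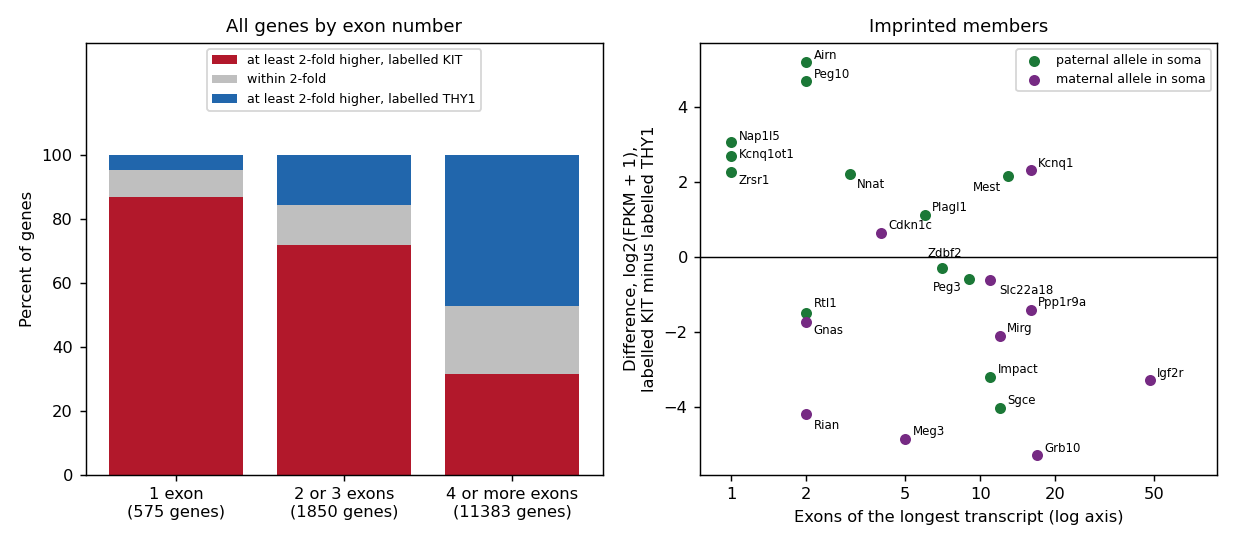
Left, percent of all genes with 1, 2 or 3, and 4 or more exons that were at least 2-fold higher in either library or within 2-fold. Right, the difference of each imprinted gene that reached 1 FPKM, log2(FPKM + 1) labelled KIT minus labelled THY1, against its exon number on a log axis, colored by parental allele; the share higher in the KIT-labelled library falls from 86.8% to 31.5% of all genes from left to right.

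In the Dlk1-Dio3 cluster on chromosome 12, the 4 genes that reached 1 FPKM were all higher in the THY1-labelled library. Its maternal noncoding RNAs were detected in the THY1-labelled library and listed at 0 in the KIT-labelled library. Meg3, a long noncoding RNA, was at 27.6 FPKM in the THY1-labelled library. Rian, which hosts small nucleolar RNAs, was at 17.2 FPKM, and Mirg, which hosts microRNAs, at 3.25 FPKM. The levels were thus lower from Meg3 to Rian to Mirg, the order in which the genes lie. By the fragment worth above and the annotated lengths, these 3 values correspond to about 940, 326 and 29.1 fragments, in the deeper of the 2 libraries, which is also the one with the higher Leydig and meiotic markers given below. Rtl1, a retrotransposon-derived gene of the placenta expressed from the paternal allele, was at 17.0 FPKM in the THY1-labelled library and 5.46 FPKM in the KIT-labelled library, a difference of -1.48. That difference was -0.98, inside 2-fold, when the libraries were scaled to the same upper quartile. Rtl1 is overlapped on the other strand by an antisense RNA of the maternal allele, and whether the authors counted by strand is not given in the sources used here, so the 2 cannot be told apart. The paternally expressed ends of the cluster, Dlk1, a Notch-related regulator of differentiation, and Dio3, which inactivates thyroid hormone, were listed at 0 in both libraries.

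The Meg3 promoter is shown because it heads the unit that was listed at 0 in 1 library. It spans chr12:109540746-109541045 (GRCm38.p6, plus strand, RefSeq), 250 bases before to 50 after the annotated start, holds 13 CpG dinucleotides, and its capitals mark a match, on the minus strand, to the hexamer TGCCGC, whose methylated form the imprint-keeping protein ZFP57 binds.
Meg3: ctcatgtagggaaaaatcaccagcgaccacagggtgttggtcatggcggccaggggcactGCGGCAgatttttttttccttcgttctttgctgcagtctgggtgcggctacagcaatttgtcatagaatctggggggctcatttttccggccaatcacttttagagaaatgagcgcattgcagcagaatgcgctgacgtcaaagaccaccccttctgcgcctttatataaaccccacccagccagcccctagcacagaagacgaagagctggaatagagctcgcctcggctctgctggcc

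The opposite pattern was seen for Airn in the Igf2r cluster on chromosome 17. Airn, a paternal antisense RNA that silences Igf2r on the same chromosome in soma, was at 102.55 FPKM in the KIT-labelled library and 1.82 FPKM in the THY1-labelled library, a ratio of 56.4. Igf2r, the receptor that clears IGF2, was at 1.35 FPKM in the KIT-labelled library and 21.9 FPKM in the THY1-labelled library, a ratio of 16.2 the other way. The sense and antisense genes therefore ran in opposite directions. Airn lies across the 5' part of Igf2r on the other strand, and also overlaps Mas1 on the other strand (listed at 0 and at 3.43 FPKM), so these genes cannot be told apart if strand was not used in counting. By the fragment worth above and the annotated transcript length, the larger Airn value corresponds to about 51.6 fragments and the smaller Igf2r value to about 4.39. These fragment numbers are rough, since they rest on the longest annotated transcript. The Airn promoter, shown as the start of the antisense RNA that ran opposite to Igf2r, spans chr17:12741061-12741360 (GRCm38.p6, plus strand, RefSeq). It holds 3 CpG dinucleotides and neither of the motifs searched, so it has no capitals.
Airn: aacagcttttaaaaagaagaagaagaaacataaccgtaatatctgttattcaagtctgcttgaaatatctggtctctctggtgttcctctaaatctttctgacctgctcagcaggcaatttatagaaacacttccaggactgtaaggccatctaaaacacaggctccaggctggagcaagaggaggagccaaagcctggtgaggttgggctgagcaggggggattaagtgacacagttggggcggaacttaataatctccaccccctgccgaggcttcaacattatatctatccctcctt

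In the Kcnq1 cluster on chromosome 7, the antisense RNA and the gene it lies in were both higher in the KIT-labelled library. Kcnq1ot1, the paternal noncoding RNA that silences its neighbours in soma, was at 21.6 FPKM in the KIT-labelled library and 2.51 FPKM in the other, a difference of 2.69. Kcnq1, a potassium channel subunit, was at 17.3 and 2.68 FPKM, a difference of 2.32. The 2 overlap on opposite strands, and their ratios, 8.61 and 6.48, were similar. Cdkn1c, an inhibitor of cyclin-dependent kinases that restrains growth, was at 8.93 and 5.33 FPKM, within 2-fold. It passed 2-fold (1.18) with scaling to the upper quartile. The transporter gene Slc22a18 was at 7.55 and 12.0 FPKM, a difference of -0.61, which became -1.09 with scaling to a median ratio of 1. That median ratio was taken over genes above 0 in both libraries. Phlda2, a placental growth inhibitor, and Ascl2, a trophoblast transcription factor, were listed at 0 in both libraries.

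The Peg10 cluster on chromosome 6 held 2 neighbours that start next to each other and ran in opposite directions. Peg10, a retrotransposon-derived gene needed for the placenta, was at 29.2 FPKM in the KIT-labelled library and 0.169 FPKM in the THY1-labelled library, values worth about 71.1 and 2.64 fragments. Sgce, the sarcoglycan epsilon gene that starts head to head with it, was listed at 0 in the KIT-labelled library and stood at 15.2 FPKM in the THY1-labelled library. Both are paternally expressed in soma. Their maternally expressed neighbour Ppp1r9a, which encodes an actin-binding protein, was at 0.911 and 4.04 FPKM, a difference of -1.40.

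Of the genes outside these clusters, Nnat and Gnas had the highest levels. Nnat, a small membrane protein of the brain and endocrine tissues, was at 357 FPKM in the KIT-labelled library and 75.6 FPKM in the THY1-labelled library, above 99.2% and 92.9% of all genes. Gnas, the stimulatory G protein alpha subunit, was at 110 and 364 FPKM, above 96.5% and 99.2%. It is listed here as maternally expressed, but is expressed from both alleles in most tissues. The locus makes transcripts from either allele and its row does not separate them. Nnat and Gnas were thus abundant in both libraries and ran in opposite directions, 2.23 and -1.72. Their relative size hung on the scaling, at 2.80 and -1.14 with the upper quartile and 1.66 and -2.27 with a median ratio of 1.

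Mest and Plagl1, also paternally expressed, were higher in the KIT-labelled library. Mest, a hydrolase-like gene of mesoderm, was at 53.4 FPKM there against 11.2 FPKM, a difference of 2.16. Its overlapping neighbour on the other strand, the coat protein gene Copg2, went the other way at 10.1 and 49.8 FPKM. Plagl1, a zinc-finger factor that activates other imprinted genes, was at 6.27 and 2.30 FPKM, a difference of 1.14 that was 0.67 with scaling to a median ratio of 1. The differences of Airn, Peg10, Nap1l5, Kcnq1ot1, Zrsr1, Nnat and Mest stayed past 2-fold with the pseudocount of 0.1 and all 3 scalings.

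Zrsr1 and Nap1l5 are intronless retrocopies that lie inside other genes. Zrsr1, a splicing factor gene inside an intron of Commd1, was at 56.9 FPKM in the KIT-labelled library and 10.9 FPKM in the other. Commd1 itself was listed at 0 in both. Nap1l5, a nucleosome assembly protein gene inside Herc3, was at 29.3 FPKM in the KIT-labelled library and 2.59 FPKM in the other, whereas Herc3 was at 1.35 and 3.64 FPKM. In both cases the nested gene was above its host in the KIT-labelled library, and Zrsr1 was above the listed 0 of Commd1 in the THY1-labelled library too. Nnat lies inside Blcap, which was at 4.04 and 0.915 FPKM and ran in the same direction as Nnat.

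Grb10 and Impact were the other 2 genes higher in the THY1-labelled library. Grb10, an adaptor that dampens insulin and growth factor signals, was at 37.8 FPKM there and listed at 0 in the KIT-labelled library. Impact, a regulator of the amino acid starvation response, was at 27.5 FPKM against 2.11 FPKM, a difference of -3.19. Zdbf2, a zinc-finger gene, was at 3.00 and 2.30 FPKM and thus similar in both. Peg3, a zinc-finger gene tied to growth and maternal care, was at 1.504 FPKM in the THY1-labelled library and 0.684 FPKM in the other, a difference of -0.57 that became -1.03 with a pseudocount of 0.1.

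Many of the best known imprinted genes were at or near 0. Of the 34, 15 were listed at 0 in the KIT-labelled library and 8 in the THY1-labelled library, and all 8 of the latter were among the former: H19, Magel2, Mkrn3, Phlda2, Dlk1, Zim1, Dio3 and Ascl2. As shares these were 44.1% and 23.5%, against 33.2% and 24.2% of all genes. H19 is the maternal noncoding RNA beside Igf2, and Igf2, the fetal growth factor, was at 0.825 FPKM in the KIT-labelled library and 0.369 FPKM in the other, worth about 1.43 and 4.08 fragments. None of the 4 genes of the Snrpn cluster on chromosome 7 reached 1 FPKM. Snrpn (with Snurf), a splicing protein gene, was listed at 0 and at 0.507 FPKM, and Ndn, a MAGE family gene, at 0 and 0.354 FPKM, labelled KIT first. Genes that nearly every cell uses are also listed at 0 in these tables (Commd1, which most tissues express, is 1 example), so a value of 0 is given only as listed.

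**Figure D4:**
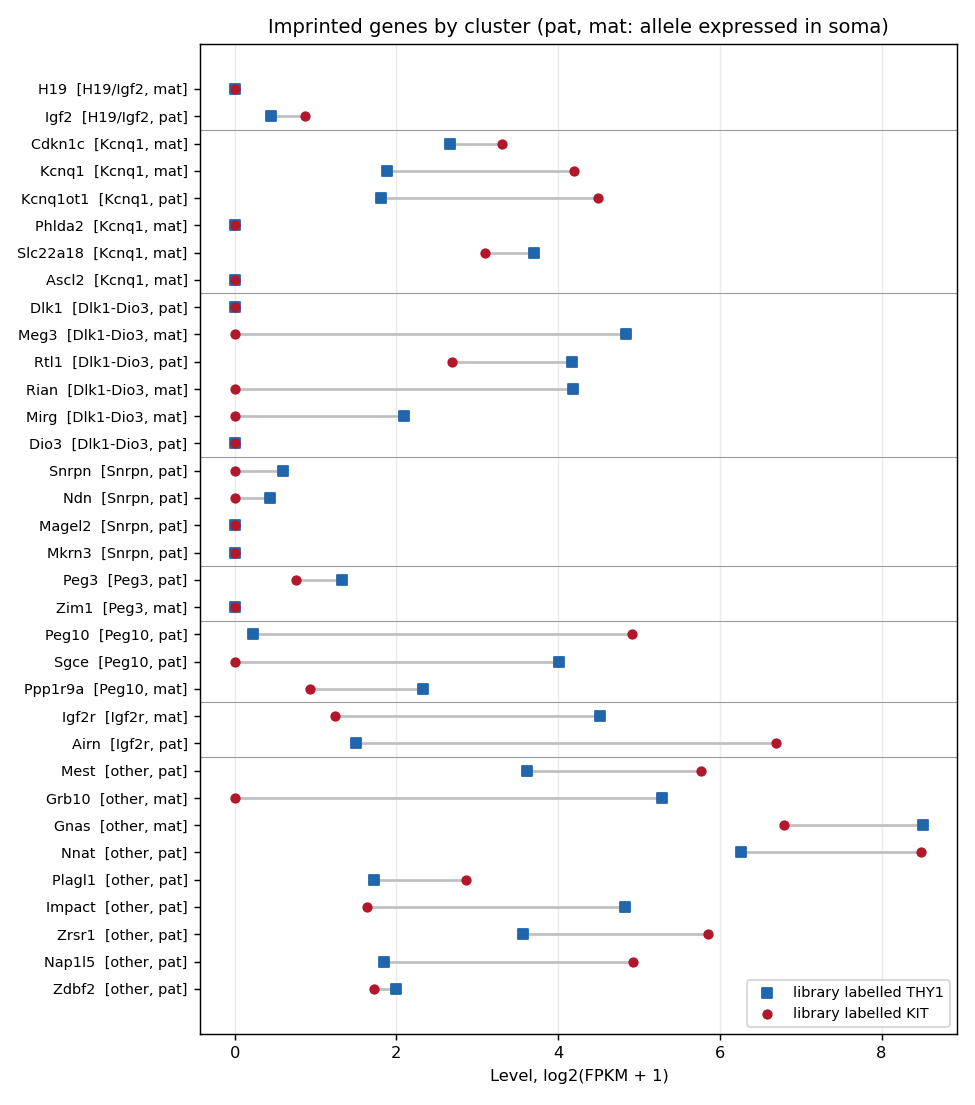
Level of each of the 34 imprinted genes, log2(FPKM + 1), in the KIT-labelled library (red circles) and the THY1-labelled one (blue squares), 1 library each, grouped by cluster, with the allele expressed in soma in brackets. The Dlk1-Dio3 RNAs Meg3, Rian and Mirg sit at 0 in the KIT-labelled library, and Airn sits at 102.55 FPKM there against 1.82 FPKM.

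The small lists below were set by known action on growth, and their counts are given beside the 39.5% and 41.1% of all genes higher in the KIT-labelled and the THY1-labelled library. Igf2, Plagl1, Peg3, Mest, Peg10, Rtl1 and Dlk1 were listed as growth-promoting. Of the 5 that reached 1 FPKM, Plagl1, Mest and Peg10 were higher in the KIT-labelled library, Rtl1 in the THY1-labelled library and Peg3 lay within 2-fold. H19, Igf2r, Grb10, Cdkn1c and Phlda2 were listed as growth-restraining. Of the 3 that reached 1 FPKM, Igf2r and Grb10 were higher in the THY1-labelled library and Cdkn1c lay within 2-fold. With 5 and 3 genes, nothing is read from these counts. All 5 that reached 1 FPKM on the first list are paternally expressed and all 3 on the second maternally.

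Marker genes of testis cell types also differed between the libraries. Their counts, here and in the next paragraph, stand beside 39.5% and 41.1% of all genes higher in the KIT-labelled and the THY1-labelled library. Of 9 Leydig cell markers, 8 were at least 2-fold higher in the THY1-labelled library and none in the other, 1 of them (Insl3) on a row shared with Jak3. They summed to 13008 FPKM there against 217 FPKM, with Hsd3b6 and Hsd17b3 listed at 0 in the KIT-labelled library and Ptgds (6463 against 24.1 FPKM) and Cyp17a1 (2945 against 18.1 FPKM) highest. All 8 meiotic markers were higher in the THY1-labelled library, with a sum of 1119 against 122 FPKM, among them Sycp3 (286 against 111 FPKM) and Syce1 (285 against 1.37 FPKM). Dmc1 and Hormad1 were listed at 0 in the KIT-labelled library. Of 10 markers of undifferentiated spermatogonia, 6 reached 1 FPKM, with 5 higher in the KIT-labelled library and 1 in the other. All 10 summed to 183 against 9.01 FPKM, with Nanos3 (118 against 2.74 FPKM) and Nanos2 (54.1 against 1.49 FPKM) highest. Zbtb16, Etv5 and Lin28a were listed at 0 in the KIT-labelled library, and Zbtb16, Lin28a and Pou5f1 in the other. The 6 markers of differentiating spermatogonia gave 3 higher in the THY1-labelled library and none in the other (102 against 43.4 FPKM summed). Spermatid markers split 5 to 3 (labelled KIT first), with sums of 4883 and 980 FPKM. The 5 had 2 to 4 exons and the 3 had 7 to 11, by the exon count used above. The part of exon number in the marker counts, here and in the next paragraph, was not tested.

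The other somatic lists also split. With the KIT-labelled library first, 4 of the 7 Sertoli markers that reached 1 FPKM were higher there and 3 in the other. The Sertoli list summed to 35.7 and 872 FPKM over the 8 of 9 on a row, Clu alone at 1.62 and 848. Of 6 peritubular and stromal markers that reached 1 FPKM, the counts were 3 and 3 (181 and 196 FPKM summed over the list). They were 4 and 1 of the 7 macrophage markers on a row (245 and 83.1 FPKM). Of 5 endothelial markers that reached 1 FPKM, they were 2 and 2 (65.0 and 12.1 FPKM). The Sertoli gene Fshr, the muscle gene Des and the endothelial gene Pecam1 were listed at 0 in the KIT-labelled library, and Des also in the other. Fshr and Pecam1 were under 1 FPKM in the THY1-labelled library too, at 0.294 and 0.219 FPKM. The part of these cells in the levels of the imprinted genes was not tested. In such bulk RNA, fewer cells of a type and less RNA per cell cannot be told apart.

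Of the genes that write, keep or erase imprints, most were higher in the THY1-labelled library. All 26 on the list were on a row and 23 reached 1 FPKM, of which 14 were at least 2-fold higher in the THY1-labelled library and 4 in the KIT-labelled library. These shares, 60.9% and 17.4%, stand beside 41.1% and 39.5% of all genes and 47.4% and 31.5% of genes with 4 or more exons. The median difference was -1.85, against -0.00258 for all genes and -0.75 for genes with 4 or more exons. Ctcfl, a testis paralog of the insulator protein CTCF, led the 4 at 100.4 FPKM in the KIT-labelled library against 4.45 FPKM. Chosen after their values were seen, Zfp57 was at 26.5 against 6.86 FPKM, Tet1, which oxidizes methylated cytosine, at 4.03 against 0.361 FPKM, and Dnmt3l, the cofactor that directs imprint writing, at 2.22 FPKM against a listed 0. The last 2 values are low, and with a minimum of 5 FPKM the count fell from 4 to 2.

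With a pseudocount of 1 and at least 5 FPKM, the largest differences toward the THY1-labelled library were those of Ehmt2, Eed, Suz12, Ezh2 and Arid4b. The histone H3 lysine methyltransferase Ehmt2 was at 95.7 FPKM in the THY1-labelled library against 1.80 FPKM. The Polycomb subunits followed with Eed at 95.9 against 5.67 FPKM, Suz12 at 46.5 against 3.78 and Ezh2 at 51.3 against 4.81, and Arid4b, a chromatin factor, was at 30.2 against 2.62 FPKM. Chosen after their values were seen, the maintenance methyltransferase Dnmt1 was at 39.4 against 15.7 FPKM, the de novo methyltransferase Dnmt3a at 11.3 against 1.72, Dnmt3b at 6.86 FPKM against a listed 0, and Trim28, the corepressor that ZFP57 recruits, at 90.7 against 19.4 FPKM. Zfp57 and Trim28 thus ran in opposite directions. Also named after their values were seen, Cbx1, a heterochromatin protein, and Mbd3, of the NuRD complex, lay within 2-fold, at differences of -0.71 and 0.13. Yy1, which binds Peg3, was similar at 25.4 FPKM in the KIT-labelled and 22.3 FPKM in the THY1-labelled library, and Dppa3, which shields imprints in the egg, was listed at 0 in both.

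**Figure D5:**
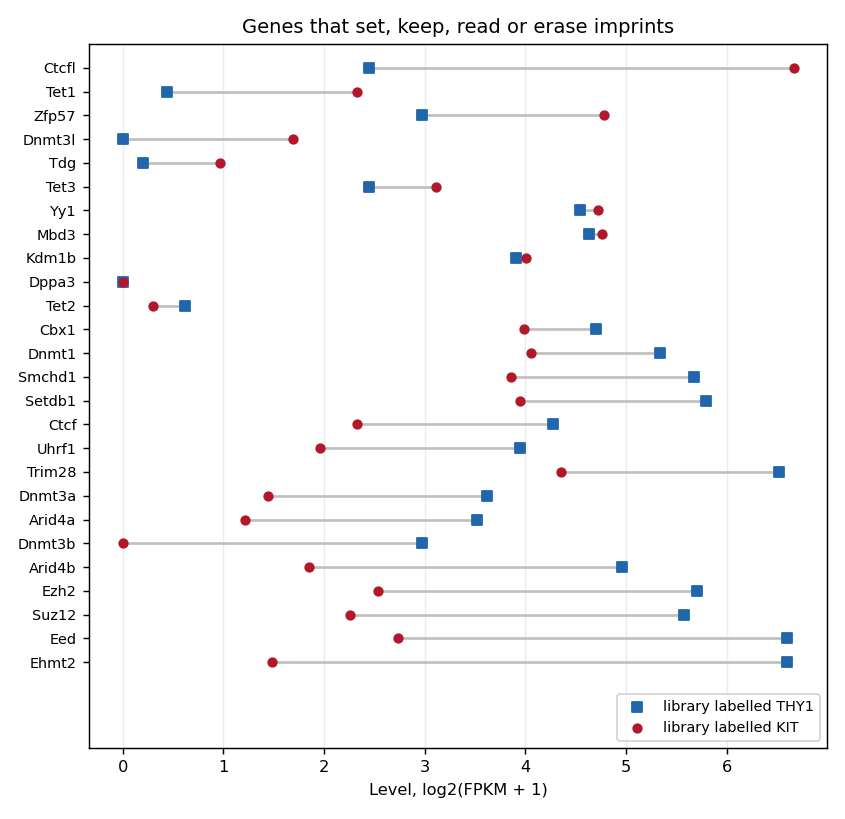
Levels of the 26 genes that write, keep or erase imprints, log2(FPKM + 1), in the KIT-labelled library (red circles) and the THY1-labelled one (blue squares), 1 library each, ordered by their difference. Ctcfl at the top is at 100.4 against 4.45 FPKM, and Ehmt2 at the bottom is at 1.80 against 95.7 FPKM.

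The promoters of the imprinted genes were richer in CpG than promoters at large and held the ZFP57 hexamer more often. RefSeq promoters of 300 bases (GRCm38.p6) were found for 27 of the 34 genes, in 42 entries, some of which overlap. They held a median of 13.5 CpG, against 7 over all 32851 promoters. TGCCGC, searched on both strands, was in at least 1 promoter of 10 of the 27 genes (37.0%), against 13.1% of all genes, and in 26.2% against 11.6% of entries. The hexamer itself holds a CpG. The YY1 motif GCCATNTT, searched the same way, was in 1 of the 42 entries, a promoter of Mkrn3, against 6.05% of all entries, and it was in none of the sequences printed. Among genes with a promoter, the hexamer was in 4 of 7 that were higher in the KIT-labelled library (Mest, Nnat, Plagl1 and Nap1l5) and 2 of 7 that were higher in the THY1-labelled library (Grb10 and Meg3). A match is a description of these letters only.

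The stretches around the matches are shown to let the sites be compared between genes of either direction, 5' to 3' on the gene's own strand with the hexamer or its reverse complement in capitals. Those of Mest lie at chr6:30737800-30737825 and chr6:30737971-30738000 (plus strand), of Nnat at chr2:157560093-157560122 (plus), of Plagl1 at chr10:13090730-13090759 (plus), of Nap1l5 at chr6:58907133-58907162 and chr6:58907082-58907111 (minus), and of Grb10 at chr11:12037379-12037408 (minus), all on GRCm38.p6.
Mest first: ccttgcccGCGGCAttaacacatggg
Mest second: aggaggggcgctGCGGCAggatgggcgggt
Nnat: gccaccggggctGCGGCAttgcgcccagca
Plagl1: ctggcgtgttgcGCGGCAaagcccacggca
Nap1l5 first: cagccattcactTGCCGCgagccgcgaagc
Nap1l5 second: gccgtcagcgttTGCCGCatcttcagacgc
Grb10: gggtgcggggagGCGGCAggaagggaaggg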

How the data were processed

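RNA was measured in testicular germ cells, and values of the 2 spermatogonial samples, 1 library each, were analysed. Per the labels' protocols, the RNA was freed of ribosomal RNA and made into directional libraries. The deposited tables hold 1 decimal value per symbol with no unit in the header, and were taken as FPKM because the submitters' processing notes name Cufflinks 2.1.1, beside TopHat 1.4.1, CASAVA and the build mm9, without roles. For the annotation, strand and reads with several alignments, the authors' settings are unknown here. The RNase P RNA Rpph1 made up 71.8% (labelled KIT) and 37.9% (labelled THY1) of the summed FPKM. FPKM is divided by the total of fragments, in which the share of Rpph1 is not known here, so values elsewhere may be lowered unequally. The series record ties each table to a sample, and the title gave the group.

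Differences are log2(FPKM + 1), KIT-labelled minus THY1-labelled, a scale on which changes of low genes come out too small. Genes reaching 1 FPKM in either library were counted past 2-fold, beside the same share of all genes. The counting was tested on simulated data. Every gene of the imprinted list was reported. Of the other imprinted genes and the regulators, the 6 with the largest difference and at least 5 FPKM were named, with genes overlapping a listed gene, and of each marker list up to 2 with the highest mean. Exceptions are marked. The imprinted genes and all lists were chosen with earlier results of these data known. GENCODE M21, on another build than mm9, gave chromosomes, overlaps, exon numbers and transcript lengths only, and matched 18395 symbols (89.0%). The worth of a fragment was FPKM times length at percentile 5 of values above 0, among genes with 1 transcript over 1000 bases. Promoter sequences and their coordinates are from RefSeq on GRCm38.p6. Other settings tried were a pseudocount of 0.1, 3 scalings, no minimum or 5 FPKM, genes above 0 in both libraries and, added after seeing the data, genes with more than 1 exon and genes worth at least 10 fragments. Scripts ran under Python 3.11.15 with pandas 2.3.3, numpy 2.4.6 and, for the plots, matplotlib 3.10.9.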

Additional observations from a re-analysis of the deposited data

How the results depend on the processing

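The counts of all measured imprinted genes by direction stayed within 1.5 times of those reported under each setting run, except that with only genes above 0 in both libraries the count higher in the THY1-labelled library fell from 10 to 5, and that of other imprinted genes from 8 to 4, since genes listed at 0 leave the count. Split by allele, the maternally expressed genes higher in the KIT-labelled library went from 1 to 2 with scaling to the upper quartile, those higher in the THY1-labelled library from 7 to 3 with genes above 0 in both, and the paternally expressed genes higher in the KIT-labelled library from 8 to 5 without genes of 1 exon. With a minimum of 5 FPKM, 2 regulators were higher in the KIT-labelled library. The median difference of all imprinted genes has no stable sign: -0.57 as reported, it was 0.034 with scaling to the upper quartile, 0.65 with a minimum of 5 FPKM and 0.89 with genes above 0 in both. In the same order, the median of all genes was -0.00258, 0.56, -0.40 and 0.42. The paternally expressed median of 2.16 was 0.0000 with no filter and 0.43 without genes of 1 exon. The maternally expressed median of -1.90 was -2.98 with a pseudocount of 0.1, -2.50 with a minimum of 5 FPKM, and -1.003 with no filter and with genes above 0 in both. Scaling to a median ratio of 1, to the upper quartile and to the sum without Rpph1 moved the median of all genes by -0.57, 0.56 and 0.22. The first of these was set over genes above 0 in both libraries only, so it did not center all genes. Of 92 values of single imprinted genes under the pseudocount and scaling settings, 87 kept their call, 5 crossed 2-fold (Peg3, Slc22a18, Plagl1, Cdkn1c and Rtl1, given above) and none that was past 2-fold changed sign. The depth of the KIT-labelled library limits what a listed 0 can show there. No paired analysis was possible because each group has 1 library, and no library could be left out.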

Other observations

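Of 35 imprinted genes outside the list above, 34 were on a row and 28 reached 1 FPKM, of which 15 were at least 2-fold higher in the KIT-labelled library and 8 in the THY1-labelled library (against 39.5% and 41.1% of all genes), with a median difference of 1.14. Begain, at the Dlk1 end of the Dlk1-Dio3 cluster, was at 9.26 FPKM in the KIT-labelled library against 0.107 FPKM, the reverse of Meg3, Rian and Mirg. Tssc4, of the Kcnq1 cluster, was at 46.2 against 1.68 FPKM, Slc22a3, of the Igf2r cluster, at 42.3 against 5.03 FPKM and Klf14, an intronless zinc-finger gene near Mest, at 8.12 against 0.117 FPKM. These genes were named by the size of their difference and not by allele. The genes outside the list were not sorted by allele, so no split by allele is read from them. Gatm, of creatine synthesis, and Trappc9, of vesicle transport, were at 18.4 and 9.05 FPKM in the THY1-labelled library and listed at 0 in the other. Nespas, antisense at the Gnas locus, was at 1.38 FPKM in the THY1-labelled library and listed at 0 in the other. Without replicates these values are descriptions of 2 libraries.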
